A study of Mus musculus with 10 samples.

Results

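The nuclear-coded subunits of respiratory chain complexes II to V were followed as 39 genes, chosen by their symbols and found in the files through Ensembl identifiers with the version left off, out of 47937 genes counted. They are 4 genes of complex II, 9 of complex III, the carrier cytochrome c, 10 of complex IV and 15 of complex V (ATP synthase). All 39 were found and all 39 passed the filter on low counts in each comparison. The measurement was mRNA-seq of visceral white adipose tissue (WAT) of C57BL/6 mice. MOF, the product of Mof (also named Kat8), is the acetyltransferase of histone H4 lysine 16, and Mof+/- mice carry 1 disrupted copy in the whole body, so that no cell type is singled out. The groups were Mof+/+ (3 libraries) and Mof+/- (3 libraries) on standard diet (SD) at 8 weeks of age, and Mof+/+ (2 libraries) and Mof+/- (2 libraries) on high-fat diet (HFD) at 27 weeks of age after 20 weeks of HFD as the labels give it. Diet and age cannot be told apart. The libraries of a group are described as biological replicates, the number of animals in a library is not given, and p-values measure the spread between these libraries, part of which may be technical.

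The respiratory chain passes electrons from NADH and succinate to oxygen and pumps protons across the inner mitochondrial membrane, and ATP synthase uses the proton gradient to make ATP. Complex II is succinate dehydrogenase, also an enzyme of the citrate cycle, and all of its subunits are coded in the nucleus. Complexes III, IV and V each join nuclear-coded subunits to a few subunits coded in the mitochondrial genome, and most of the nuclear-coded ones are small proteins with short transcripts. In white adipocytes the chain supports lipid storage and turnover, and in brown adipocytes and muscle it is more abundant and uses some subunits from genes of their own.

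Facts of the libraries touch each result below. The total of counts on genes ranged from 6724618 to 17171947 on SD and from 1044355 to 16014992 on HFD, and replicate 1 of HFD Mof+/- was the shallowest. That library gave 8.28% of its counts to 20 skeletal muscle genes and 26.9% to the mitochondrial genome, replicate 2 gave 0.20% and 1.79%, and the other 8 libraries gave at most 0.0135% to the muscle genes. Mof itself stood at 21.5, 21.4 and 20.4 CPM (counts on the gene scaled by the library's total on genes) in SD Mof+/+ and at 12.2, 18.8 and 11.45 in SD Mof+/-. It was 18.1 and 19.2 in HFD Mof+/+ and 20.1 and 10.5 in HFD Mof+/-, so that replicate 1 of HFD Mof+/- lay above both of its controls and goes against its label. The column headings inside the files put the library labelled replicate 3 of SD Mof+/+ under the heterozygous group and the library labelled replicate 3 of SD Mof+/- under the controls. In these libraries Mof, at 20.4 and 11.45 CPM, and the sex-linked genes given next go with the labels and not with the headings. All 3 SD Mof+/- libraries held Xist transcripts and no count of 4 genes of the Y chromosome, while the other 7 held no count of Xist and counts of at least 2 of the 4, so that sex cannot be told apart from genotype on SD, nor from diet and age in Mof+/-, and the interaction of genotype and diet carries the same difference, although the study's methods describe the mice as male. Summed CPM of 10 endothelial marker genes was 1387 to 3123 in SD Mof+/+ and 390 to 528 in SD Mof+/-, where 5 of the 10 were lower by the test below, and that of 10 adipocyte marker genes was 30399 to 38091 and 47097 to 69981, where 4 of the 10 were higher. Of marker genes of mesothelium 4 of 6 were higher, of fibroblasts and progenitors 4 of 8 and of macrophages 3 of 10, and of 5 lymphocyte markers tested 0 passed. The adipocyte marker Adipoq was at 879 CPM or more in every library. The part of these cell type differences in the results was not tested, and in bulk tissue fewer cells of a type cannot be told apart from less RNA per cell.

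Promoters are shown first, because the factors NRF1 and GABP (an ETS family factor) are known activators of many of the genes. Whether these factors act in the comparisons below was not tested. RefSeq promoters (build GRCm38.p6, from 250 bases before to 50 after the start) were found for 30 of the 39 genes. The NRF1 core GCATGCGC, on either strand, was in 8 of them (26.7%) and in 2.71% of all 32851 promoters. The ETS core CCGGAAG was in 12 (40.0%) and in 8.86% of all. The YY1 sequence AAGATGGCG was in 2 (6.67%, against 1.4%), and the sequence TCAAGGTCA of the oestrogen-related receptors was in 2 (6.67%, against 0.423%). A match of letters is a description and not a bound site. Windows of 30 bases are printed for the 8 genes with the NRF1 core, which is in capitals, 5′ to 3′ on the strand of the gene. In Atp5k, Atp5g2, Cox6a1 and Uqcrc1 the core overlaps its own copy on the other strand.
Sdhb, chr4:140961206-140961235, plus strand: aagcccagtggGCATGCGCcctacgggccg
Cycs, chr6:50566611-50566640, minus strand: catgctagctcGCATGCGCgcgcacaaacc
Uqcr11, chr10:80406807-80406836, minus strand: atcgccttcacGCATGCGCtatacgtctgc
Atp5k, chr5:108434429-108434458, minus strand: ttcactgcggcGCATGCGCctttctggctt
Atp5l, chr9:44920963-44920992, minus strand: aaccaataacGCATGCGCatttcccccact
Atp5g2, chr15:102671069-102671098, minus strand: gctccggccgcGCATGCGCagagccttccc
Cox6a1, chr5:115349100-115349129, minus strand: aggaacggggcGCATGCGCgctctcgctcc
Uqcrc1, chr9:108936668-108936697, plus strand: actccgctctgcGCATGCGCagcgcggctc
Of these 8 genes, 4 (Sdhb, Uqcr11, Atp5k and Atp5l) were higher in Mof+/- in the test between the genotypes on SD described below, beside 17 of all 39 genes, and the other 4 did not pass.

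The 39 genes took 0.984% to 1.17% of counts in SD Mof+/+, 1.37% to 2.19% in SD Mof+/-, 1.10% and 1.19% in HFD Mof+/+, and 1.95% and 2.25% in HFD Mof+/-. The complexes differed in how far their sums went, and a sum follows its most abundant genes. Summed CPM of the 4 complex II genes was 938, 1044 and 945 in SD Mof+/+ and 1161, 1205 and 1003 in SD Mof+/-, which overlap. Summed over the 9 complex III genes it was 1565, 1974 and 1756 against 2372, 2731 and 4367, and over the 10 complex IV genes 2358, 2881 and 2866 against 3846, 4604 and 7917. The 15 complex V genes summed to 4876, 5690 and 4998 CPM in SD Mof+/+ and to 6161, 6652 and 8525 in SD Mof+/-. In complexes III, IV and V the SD groups did not overlap, and replicate 3 of SD Mof+/- lay above replicates 1 and 2. In complex II, Sdha was the most abundant of the 4 genes in SD Mof+/+ and did not rise. Gene by gene, in the SD test described below, the median log2 fold change was 0.98 in complex II and 0.96 in complex V. It was 1.28 in complex III and 1.44 in complex IV.

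On HFD the complex II genes summed to 770 and 730 CPM in Mof+/+ and to 1092 and 1167 in Mof+/-. Complex III summed to 1827 and 2015 CPM against 4363 and 4276, and complex IV to 3188 and 3598 against 5169 and 7386. Complex V summed to 5115 and 5450 CPM in HFD Mof+/+ and to 8584 and 9535 in HFD Mof+/-. The 2 HFD groups did not overlap in any of the 4 complexes. As ratios of group means, Mof+/- over Mof+/+ was 1.15 on SD and 1.51 on HFD for complex II, 1.79 and 2.25 for complex III, 2.02 and 1.85 for complex IV, and 1.37 and 1.72 for complex V.

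**Figure D1:**
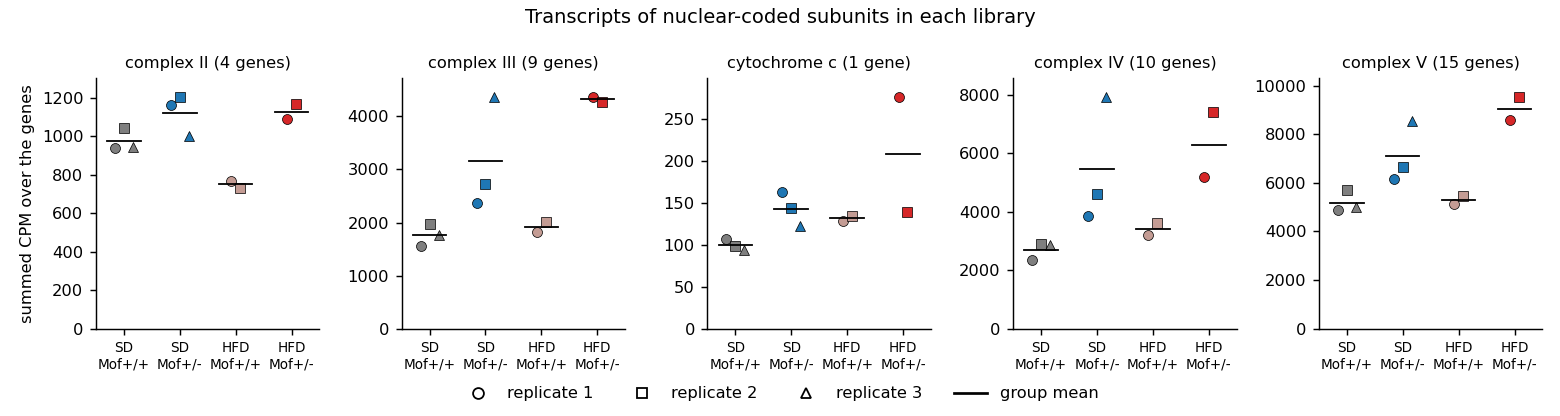
Summed CPM (vertical axis, from 0) of the nuclear-coded subunits of each complex in each library. Points are libraries, shaped by replicate number, and lines are group means. Complex II overlaps between the SD genotypes at 938 to 1044 against 1003 to 1205, and in complexes III to V replicate 3 of SD Mof+/- is the highest SD library.

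Levels between genes are compared per length, as CPM per 1000 bases of transcript. In SD Mof+/+ the highest was Atp5b, the catalytic beta subunit of ATP synthase, at 815 ± 126 (SD, n = 3), followed by Cox4i1 at 775 ± 77.5, Cox8a at 757 ± 147 and Cox6a1 at 687 ± 117, and these neighbours do not differ beyond their spread. The lowest were Cycs at 31.7 ± 2.19 and Sdhc, a membrane anchor of complex II, at 51.5 ± 1.77. In SD Mof+/- the level per length was 766 for Atp5b, 1794 for Cox4i1 and 1573 for Atp5e, the small epsilon subunit, so that the order of the genes was another one. Within complex III the highest level per length was 4.38 to 5.99 times the lowest in the SD Mof+/+ libraries, 6.46 and 9.26 times in replicates 1 and 2 of SD Mof+/-, and 33.1 times in replicate 3. In the HFD libraries it was 9.34 and 12.8 times in Mof+/+ and 35.9 and 27.0 times in Mof+/-. The level of Uqcrc2, a core protein with a long transcript for this family, and that of Uqcrq, with a short one, set this ratio in replicate 3 of SD Mof+/-. In that library Uqcrc2 was the lowest of the 6 SD libraries at 110 CPM and Uqcrq the highest at 779 CPM.

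The first comparison asked how the genotypes differ on SD. Of the 39 genes 17 were higher in Mof+/- at an adjusted p under 0.05 (edgeR's quasi-likelihood test, Benjamini-Hochberg over all genes tested) and 0 were lower, where 3.33% of the 13864 genes tested were called higher and 1.91% lower. The median log2 fold change was 1.14 over the 39 genes and -0.07 over all genes tested, and 38 of the 39 were above 0. These fits use TMM, a scaling by the bulk of genes, which by itself adds 0.36 on the log2 scale to this comparison relative to CPM. With CPM alone the median was 0.75 over the 39 genes, of which 34 were higher and 5 lower, and -0.41 over all genes. Groups did not overlap in CPM, with Mof+/- higher, for 26 of the 39 genes and for 9.71% of all genes tested, and with Mof+/- lower for 0 and for 30.6%.

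In complex II, 2 of 4 genes passed. Sdhb, the iron-sulfur subunit, was at 167, 155 and 159 CPM in SD Mof+/+ and at 260, 301 and 285 in SD Mof+/-. The groups did not overlap, and the log2 fold change was 1.18 with a standard error (SE) of 0.22 (adjusted p = 0.032, edgeR). Sdhd, a membrane anchor that binds heme, was at 138, 130 and 137 CPM against 232, 217 and 168, a log2 fold change of 0.96 (SE 0.21, adjusted p = 0.044, edgeR). Sdhc, the other anchor, was at 160, 170 and 160 CPM against 181, 258 and 315. Its groups did not overlap, and at 0.996 (SE 0.28, adjusted p = 0.070, edgeR) it did not pass. Sdha, the flavoprotein that oxidises succinate, was at 473, 589 and 489 CPM in Mof+/+ and at 488, 430 and 235 in Mof+/-. It overlapped between the groups, was the one gene of the 39 below 0 at -0.09 (SE 0.29, adjusted p = 0.88, edgeR), and was lowest in replicate 3 of Mof+/-, where Sdhc was highest.

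In complex III, 4 of 9 genes passed, and all 4 code for small subunits around the catalytic core (Uqcrq, Uqcrh, Uqcr10 and Uqcr11). Uqcr11 had the largest difference of the complex, from 162, 214 and 176 CPM in SD Mof+/+ to 345, 404 and 784 in SD Mof+/-, a log2 fold change of 1.86 (SE 0.38, adjusted p = 0.038, edgeR). Uqcrc2 had the smallest, with 186, 209 and 193 CPM against 254, 224 and 110, which overlap, and 0.34 (SE 0.30, adjusted p = 0.51, edgeR). Cyc1, which codes for cytochrome c1, stood at 0.36, Uqcrc1, the other core protein, at 0.37, and Uqcrfs1, the Rieske iron-sulfur protein, at 0.81, and none of the 3 passed. Cycs, the carrier between complexes III and IV, was at 107, 97.8 and 93.1 CPM in SD Mof+/+ and at 163, 143 and 122 in SD Mof+/-. Its groups did not overlap, and at 0.88 (SE 0.21, adjusted p = 0.051, edgeR) it lay just outside the threshold.

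In complex IV, 7 of 10 genes passed: Cox4i1, Cox5b, Cox6b1, Cox6c, Cox7a2, Cox7b and Cox7c, which code for subunits that surround the mitochondrially coded core. Cox7c had the largest difference, from 127, 138 and 118 CPM to 274, 297 and 603, a log2 fold change of 2.01 (SE 0.37, adjusted p = 0.032, edgeR). Every SD Mof+/- library lay above every SD Mof+/+ library, and replicate 3 was the highest. Cox8a had the smallest, from 325, 481 and 442 CPM to 494, 537 and 709. Its groups were close but did not overlap, and at 0.85 (SE 0.28, adjusted p = 0.10, edgeR) it did not pass, nor did Cox5a at 0.86 or Cox6a1 at 1.14.

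In complex V, 4 of 15 genes passed, all for small subunits of the membrane part and the stalk: Atp5h (subunit d), Atp5j2 (subunit f), Atp5k (subunit e) and Atp5l (subunit g). Atp5k had the largest difference of the 39 genes, from 142, 126 and 131 CPM in SD Mof+/+ to 303, 315 and 853 in SD Mof+/-, a log2 fold change of 2.28 (SE 0.45, adjusted p = 0.037, edgeR). Atp5b had the smallest of the complex, from 1403, 1840 and 1443 CPM to 1600, 1647 and 1156, which overlap, and 0.26 (SE 0.25, adjusted p = 0.56, edgeR). The other large subunits were near Atp5b, with Atp5a1 (alpha) at 0.29 and Atp5c1 (gamma) at 0.55. Atp5e stood at 2.02 and did not pass (SE 0.55, adjusted p = 0.066, edgeR). The remaining 7 genes lay between 0.43 and 1.26 and did not pass.

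Subunit c, which forms the rotating ring, is coded by 3 genes that make the same mature protein. Atp5g1 was at 56.6, 73.7 and 81.6 CPM in SD Mof+/+ and at 85.6, 87.6 and 213 in SD Mof+/-, and the log2 fold change was 1.26 (SE 0.41, adjusted p = 0.10, edgeR). Atp5g2 was at 87.0, 98.1 and 104 CPM against 100.7, 101.1 and 101.1, and Atp5g3 at 400, 457 and 390 against 347, 523 and 548. These overlap between the groups and stood at 0.43 (SE 0.21) and 0.55 (SE 0.27), short of the threshold. The share of Atp5g1 in the counts of the 3 genes, in order of replicate, was 10.4% (95% confidence interval 9.505% to 11.4%, exact Clopper-Pearson, counting error only), 11.7% and 14.2% in SD Mof+/+ and 16.1%, 12.3% and 24.7% (23.5% to 25.8%) in SD Mof+/-. These shares overlap between the genotypes, and replicate 3 of SD Mof+/- was the highest.

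**Figure D2:**
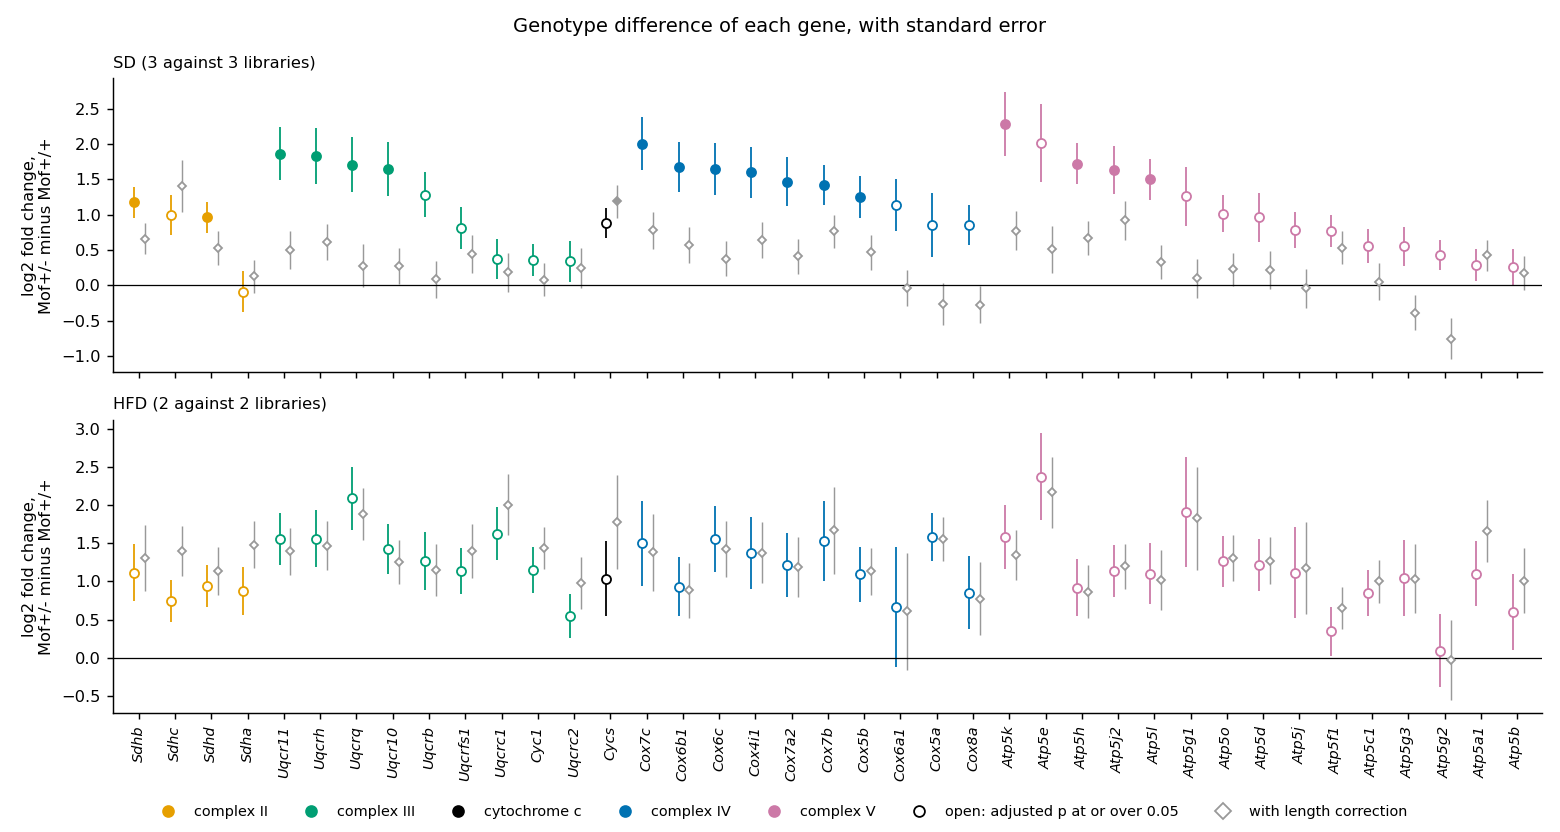
Log2 fold change of Mof+/- minus Mof+/+ for each of the 39 genes on SD (upper panel) and HFD (lower panel), with SE. Circles are fits without and diamonds fits with a correction for transcript length, and filled symbols are below an adjusted p of 0.05. On SD 17 genes are filled without the correction and 1 (Cycs) with it, and on HFD none is filled.

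The genes that passed had short transcripts. The median length of the 39 transcripts was 745 bases (371 to 3171), against 2713 for the 14638 genes with at least 100 counts over the 10 libraries. Of the 25 genes with at most 1000 bases 14 passed on SD, of the 5 with over 1000 and up to 1500 bases 3 passed, and of the 9 longer ones 0. Over all genes tested 13.02%, 7.23% and 1.57% were called higher in these classes, and their median log2 fold change was 1.12, 0.52 and -0.24. The medians of the 39 genes in the same classes were 1.501, 0.96 and 0.36. Spearman's rho between log2 fold change and transcript length was -0.72 across the 39 genes and -0.47 across 13832 genes, as a description, since the genes share libraries.

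When each library's trend with length was entered as an offset, the median of the 39 genes on SD was 0.38 beside 0.10 over all genes, and 33 of the 39 were above 0. Over all genes 1.74% were called higher and 0.716% lower. Of the 39 the gene called was Cycs, with 3123 bases the longest transcript of the 39 after Sdhc, at 1.19 (SE 0.23, adjusted p = 0.038, edgeR with the offset). Sdhc, also long, stood at 1.40 (SE 0.37, adjusted p = 0.071, edgeR with the offset). Atp5k was at 0.77 (SE 0.27), Cox7c at 0.78 (SE 0.26) and Uqcr11 at 0.51 (SE 0.27), and Atp5g2, with 441 bases, was lowest at -0.75 (SE 0.28). The part of the length trend in the SD result beyond this correction was not tested.

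**Figure D3:**
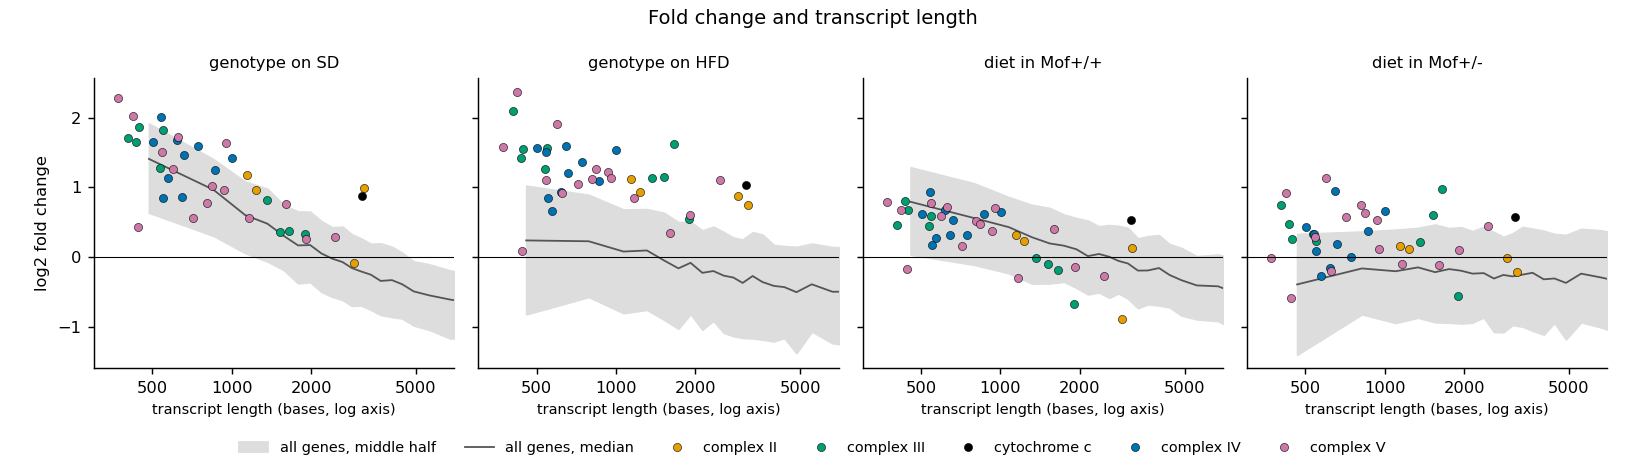
Log2 fold change (vertical) against transcript length in bases (horizontal, log axis) for the 39 genes, coloured by complex, in each comparison. The line and grey band are the median and the range between the quartiles of all genes tested, binned by length. On SD the genes fall with length as the line does (rho -0.72), and between the genotypes on HFD their median of 1.13 lies above the -0.24 of all genes.

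The calls on SD, more than the differences, changed with single libraries. Without replicate 3 of SD Mof+/-, in which 29 of the 39 genes were at their highest of the 3 Mof+/- libraries, 18 genes passed, with a median of 0.88, where 2.88% of all genes were called higher and 1.63% lower. Without replicate 2 of SD Mof+/- 0 passed (median 1.17, 28 at an unadjusted p under 0.05, lowest adjusted p = 0.10, edgeR), where 0.0815% and 0.034% of all genes were called, and 0 passed without any single SD Mof+/+ library (lowest adjusted p = 0.090 to 0.15, edgeR). Without replicates 1, 2 and 3 of SD Mof+/+ the medians were 1.01, 1.16 and 1.16, with 24, 30 and 28 genes at an unadjusted p under 0.05. Over all genes 0.075%, 0.123% and 0.263% were then called higher and 0.0546%, 0.116% and 0.249% lower, so that calls were few over all genes too. With replicate 1 of SD Mof+/- left out 19 passed, where 4.51% of all genes were called higher and 2.38% lower. Grouped by the headings inside the files, which exchange replicate 3 of the SD groups, 0 of the 39 and 0 of all 13864 genes passed (156 of all at an unadjusted p under 0.05 higher and 76 lower, edgeR), and the median of the 39 was -0.15, with 10 of 39 genes above 0.

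The same contrast on HFD asked whether the genotypes differ after the diet. Of the 39 genes 0 passed in either direction (0.0% of 14120 genes tested were called higher and 0.0% lower by edgeR), while 27 had an unadjusted p under 0.05 in the direction of Mof+/- (472 higher and 1260 lower over all genes). DESeq2 called 0 of the 39, and of 20343 genes in all it called 135 higher and 63 lower. By DESeq2 10 of the 39 were higher at an unadjusted p under 0.05, against 630 higher and 821 lower over all genes. All 39 log2 fold changes were above 0, from 0.09 to 2.37, with a median of 1.13 beside -0.24 over all genes. Mof+/- and Mof+/+ libraries did not overlap in CPM, with Mof+/- higher, for 32 genes, against 8.82% of all genes tested, and with Mof+/- lower for 0, against 45.6%. Summed CPM of the macrophage marker genes was 5743 and 7983 in HFD Mof+/+ against 1792 and 3822 in HFD Mof+/-, with all 10 below 0 (median -0.92) and 0 called, and its part in this result was not tested. With the length correction the median was 1.30 and 38 genes were above 0, and the median of all genes was 0.22.

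Atp5e had the largest HFD difference, from 271 and 364 CPM in Mof+/+ to 1617 and 923 in Mof+/-, a log2 fold change of 2.37 (SE 0.57, adjusted p = 0.28, edgeR). Atp5g2 had the smallest, with 74.4 and 82.6 CPM against 36.4 and 100.5, which overlap, and 0.09 (SE 0.48, adjusted p = 0.96, edgeR). The 4 complex II genes did not overlap between the HFD groups. Sdha was at 282 and 234 CPM in Mof+/+ and at 316 and 445 in Mof+/-, with a log2 fold change of 0.88 (SE 0.32). Sdhb was at 173 and 193 CPM against 360 and 259 (1.11, SE 0.38), Sdhc at 173 and 155 against 204 and 233 (0.74, SE 0.28), and Sdhd at 142 and 149 against 212 and 231 (0.94, SE 0.28). None of the 4 passed, at adjusted p from 0.28 to 0.40 (edgeR).

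Of the large subunits of complex III, Uqcrc1 was at 233 and 245 CPM in HFD Mof+/+ and at 609 and 553 in HFD Mof+/-, with a wide gap between the groups. Its log2 fold change of 1.63 (SE 0.35, adjusted p = 0.28, edgeR) was the second of complex III behind Uqcrq at 2.09. Uqcrc2, the other core protein, had the smallest of complex III, from 124 and 101.3 CPM to 125 and 137 (0.55, SE 0.29, adjusted p = 0.60, edgeR), and its groups were close. Cycs was at 128 and 135 CPM against 276 and 139, so that replicate 2 was close to the controls and replicate 1 apart (1.04, SE 0.49). Atp5g1 was at 91.4 and 103 CPM against 428 and 126 (1.91, SE 0.72) and Atp5g3 at 413 and 443 against 411 and 1045 (1.05, SE 0.50), with the raised library a different one for each.

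The 2 HFD Mof+/- libraries thus differ between themselves gene by gene, and the library labelled replicate 1 is the one with muscle transcripts. In replicate 1, 33 of the 39 genes lay above both HFD Mof+/+ libraries and 5 below both, and in replicate 2, which has 0.20% of counts on muscle genes, 38 lay above both and 1 below. The ratio of replicate 1 to replicate 2 ran from 0.17 for Cox6a1 to 3.40 for Atp5g1, with a median of 0.84. Without replicate 1 all 39 log2 fold changes stayed above 0, from 0.09 to 1.78, with a median of 1.17 (0 passed, with 0.00557% of all genes called higher and 0.0111% lower, lowest adjusted p = 0.14, edgeR, the lone library assumed to vary like the other groups). Without replicate 2, 37 were above 0 with a median of 0.98, and 11 passed, all of them higher, where 3.5% of 17895 genes tested were called higher and 15.8% lower and the median of all genes was -1.62. The 11 are Sdhb, Uqcrc1, Uqcrq, Uqcrb, Cycs, Cox6c, Cox7b, Cox7c, Atp5e, Atp5g1 and Atp5j.

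**Figure D4:**
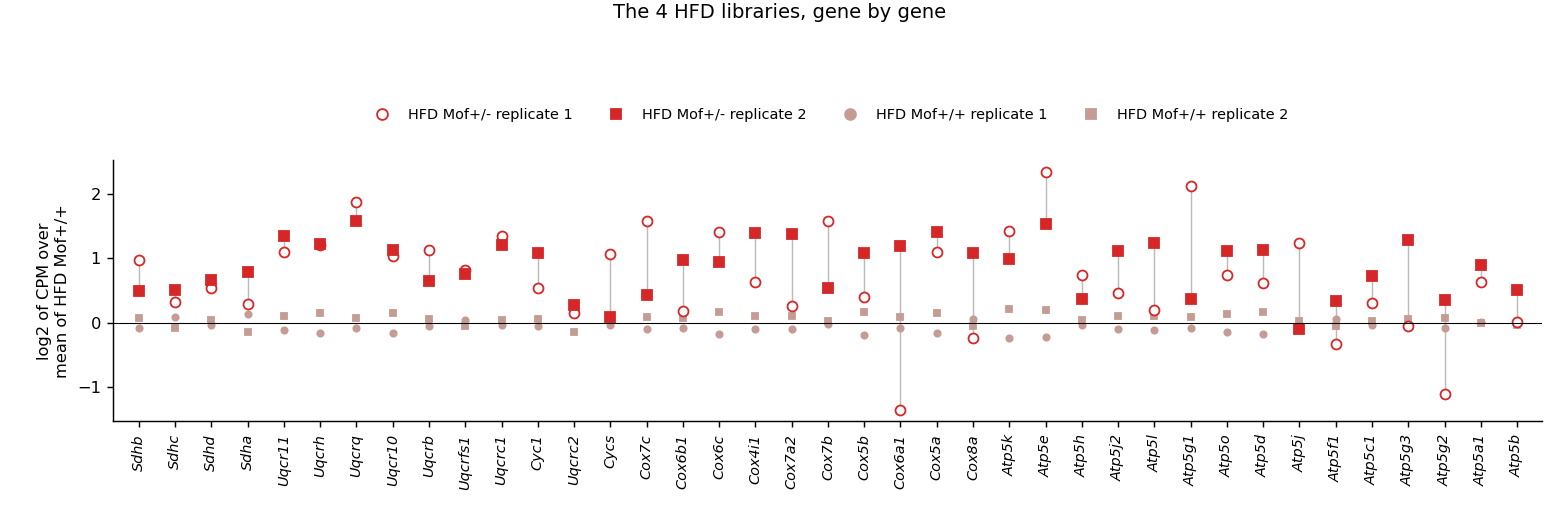
CPM of each gene in the 4 HFD libraries as log2 of its ratio to the mean of the 2 HFD Mof+/+ libraries. Grey lines join the 2 HFD Mof+/- libraries. Replicate 2 lies above both controls for 38 genes, and replicate 1 for 33, with Cox6a1 and Atp5g2 far below them.

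Some complex IV subunits have a second gene used in muscle, heart or brown fat, and these genes are not among the 39. Cox6a2, the muscle form of subunit 6A, was at 4.6 CPM or less in 8 libraries, at 414 in replicate 1 of HFD Mof+/- and at 12.3 in replicate 2. It made up 70.8% of the counts of Cox6a2 and Cox6a1 in replicate 1 (67.0% to 74.4%, exact Clopper-Pearson interval) and 1.22% (0.948% to 1.54%) in replicate 2. Cox6a1 itself, the widely used form, was at 410 and 463 CPM in HFD Mof+/+ and at 170 and 996 in HFD Mof+/-. It was picked out after its values were seen. Summed with Cox6a2 the subunit stood at 414 and 466 CPM against 584 and 1008.

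Cox7a1 took 54.1% of the counts of Cox7a1 and Cox7a2 in replicate 1 (50.4% to 57.8%) and 5.33% in replicate 2 (4.65% to 6.08%), against 2.44% and 2.78% in HFD Mof+/+. Cox8b, the form of subunit 8 used in muscle and brown fat, took 64.1% (61.1% to 66.9%) and 21.2% (20.2% to 22.2%) of the counts of Cox8b and Cox8a, against 3.51% and 5.19%. Cox8b was at 650 and 244 CPM in HFD Mof+/- and at 33.0 or less in the other 8 libraries, so that replicate 2 lay above the other 8 for Cox8b as for Cox6a2. Ucp1, the defining gene of brown adipocytes, was at 81.4 CPM in replicate 1, 3.6 in replicate 2 and 0.9 or less elsewhere. Summed CPM of 9 brown adipocyte marker genes was 1137 and 358 in these libraries and at most 83.8 in the others. Cox8b and Cox7a1 are among the 9, so that this sum repeats them, and Cox8b alone gave 650 and 244 CPM of it. On HFD 5 of the 9 passed the filter on low counts. In subunit c, Atp5g1 took 48.9% of counts in replicate 1 (45.6% to 52.2%) and 9.91% in replicate 2 (9.22% to 10.6%), and Atp5g2 took 4.16% and 7.90%, both below the 12.8% and 13.1% of HFD Mof+/+. Cox4i2, the second form of subunit 4, was at 11.6 CPM or less in every library. With replicate 1 left out the median of the 39 genes on HFD was as large, at 1.17, and the part of brown fat RNA was not tested.

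**Figure D5:**
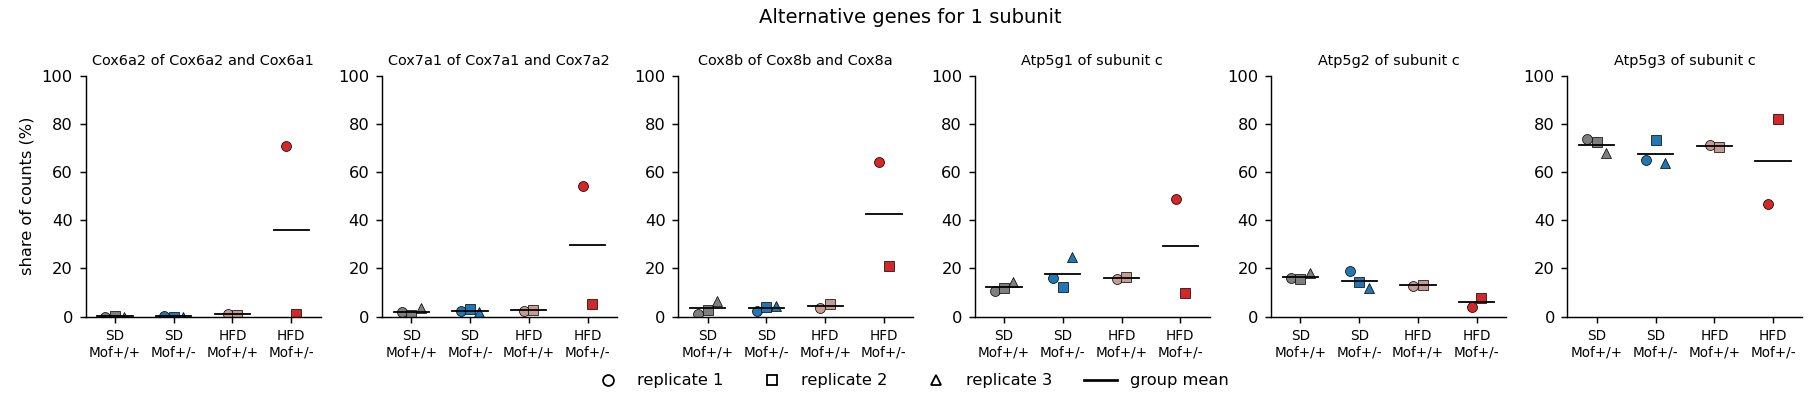
Share of counts (vertical, percent) taken by 1 gene among the genes for the same subunit, per library, with group means as lines. Replicate 1 of HFD Mof+/- stands apart in the panels other than that of Atp5g2, at 70.8% for Cox6a2 and 48.9% for Atp5g1, and replicate 2 stands apart for Cox8b at 21.2%.

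The third comparison asked what diet and age do in Mof+/+ libraries. On HFD 5 of the 39 genes were higher and 1 lower by edgeR, where 6.02% of 14939 genes tested were called higher and 3.73% lower. The median was 0.45 over the 39 genes and -0.04 over all genes, and 30 genes were above 0. Cox7c had the largest difference, from 127, 138 and 118 CPM on SD to 210 and 238 on HFD, a log2 fold change of 0.94 (SE 0.18, adjusted p = 0.025, edgeR). The other 4 that rose were Uqcr10 at 0.80, Atp5l at 0.78, Atp5h at 0.71 and Atp5j2 at 0.70. Sdha fell by 0.88 on the log2 scale (SE 0.21, adjusted p = 0.044, edgeR), from 473, 589 and 489 CPM to 282 and 234, with a clear gap between the groups. Of 16 other genes of the citrate cycle and pyruvate dehydrogenase, 2 (Pdha1 and Pdhb) were lower and 0 higher. Summed CPM of 10 macrophage marker genes was 1270 to 2140 in SD Mof+/+ and 5743 and 7983 in HFD Mof+/+, where 8 of the 10 were higher. That of 10 endothelial marker genes was 1387 to 3123 against 701 and 615, where 3 were lower, and that of 10 adipocyte marker genes 30399 to 38091 against 28377 and 24863, where 2 were lower and 1 higher. The part of these cell type differences in the diet result was not tested. With a library left out fewer passed, 0 without replicate 1 of SD Mof+/+ or either HFD library, 1 (Cox7c) without replicate 2 and 2 (Cox7c, and Sdha lower) without replicate 3 of SD Mof+/+. Over all genes 1.13%, 3.75% and 8.88% were called higher and 0.503%, 2.12% and 5.97% lower without replicates 1, 2 and 3 of SD Mof+/+, and 0.268% and 0.101% higher and 0.0112% and 0.00559% lower without replicates 1 and 2 of HFD Mof+/+.

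With the length correction the median of the 39 genes between diets in Mof+/+ was -0.16, 7 genes were above 0, 0 were called higher and 1 lower, where 3.94% and 1.93% of all genes were. The gene called lower was Atp5g2 (-1.01, SE 0.23, adjusted p = 0.047, edgeR with the offset). Sdha was then at -0.86 (SE 0.23, adjusted p = 0.073, edgeR with the offset) and Uqcrc2 at -0.85 (SE 0.22, adjusted p = 0.064, edgeR with the offset). Groups did not overlap for 22 genes with HFD higher and for 8 with HFD lower, against 21.0% and 28.2% of all genes tested.

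In Mof+/- libraries, where the same contrast has 3 SD and 2 HFD libraries and sex differs with diet, 0 of the 39 genes passed, nor did any of the 13610 genes tested (0.0% higher and 0.0% lower by edgeR). An unadjusted p under 0.05 was found for 0 of the 39, against 420 of all genes higher and 746 lower. DESeq2 called 0 of the 39, and of 20452 genes in all it called 205 higher and 265 lower. Without replicate 2 of HFD Mof+/-, which leaves the library with muscle RNA, 5 were higher (Uqcrc1, Cycs, Cox7b, Atp5g1 and Atp5j) and 2 lower (Cox6a1 and Atp5g2), where 4.62% of 17895 genes tested were called higher and 17.2% lower. With no library left out the median was 0.27 over the 39 genes and -0.26 over all genes, and 29 of the 39 were above 0. With the length correction it was 0.61 beside 0.09 over all genes, with 37 above 0, 9 at an unadjusted p under 0.05 and 0 called. Atp5g1 had the largest difference, from 85.6, 87.6 and 213 CPM to 428 and 126 (1.13, SE 0.69, adjusted p = 0.69, edgeR), and its groups overlap. Atp5g2 had the smallest, from 100.7, 101.1 and 101.1 CPM to 36.4 and 100.5 (-0.59, SE 0.47, adjusted p = 0.79, edgeR), with the gap in 1 library. Groups did not overlap for 6 genes with HFD higher and 1 with HFD lower, against 9.88% and 17.7% of all genes tested. The 4 comparisons share groups in pairs, so that their values are set side by side and not correlated.

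Whether the genotype difference itself changed with diet was fitted as an interaction over all 10 libraries. Of the 39 genes 0 passed (0.0252% of 15897 genes tested were called with a larger and 0.0629% with a smaller genotype difference on HFD, by edgeR). Their interaction terms ran from -0.91 to 1.15 on the log2 scale with a median of -0.12, beside -0.41 over all genes. The sign of that median depends on the processing: it was 0.52 with the length correction, where 34 of the 39 were above 0 and 0 passed, and 1.13 by the headings' grouping, where 37 were above 0 and 0 passed. The 1 gene with an unadjusted p under 0.05 was Uqcrc1 at 1.15 (SE 0.46, adjusted p = 0.35, edgeR). DESeq2 called 0 of the 39, and of 23245 genes in all it called 213 larger and 292 smaller.

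Other genes of the pathway were taken from lists. Of 36 nuclear-coded complex I genes, 15 were higher on SD Mof+/- and 0 lower, where 3.33% and 1.91% of all genes were, with a median of 1.31, and on HFD 0 passed with a median of 1.33. Their median transcript length was 868 bases, and with the length correction 0 passed on SD, with a median of 0.51. Of 37 assembly factors of complexes II to V tested, 6 were higher on SD and 0 lower, with a median of 0.92, and with the length correction 1 was higher and the median was 0.55 (median length 1473.5 bases). Atpif1, the inhibitor of ATP synthase, was among the 6 at 1.74 (SE 0.36, adjusted p = 0.038, edgeR), as was Sdhaf4, an assembly factor of Sdha, at 1.91 (SE 0.38, adjusted p = 0.036, edgeR). The other 4 were Uqcc3, Coa4, Coa6 and Pet100. On HFD 0 of the 37 passed, and Atpif1 stood at -0.67 (SE 0.35). Of 16 citrate cycle genes 0 passed on SD, with a median of 0.29.

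The 6 genes of the mitochondrial genome for subunits of complexes III to V summed to 36462 to 52628 CPM in SD Mof+/+ and to 49705, 42543 and 13645 in SD Mof+/-, where 0 of 6 passed and the median was 0.05. They summed to 23652 and 16835 in HFD Mof+/+ and to 132265 and 9412 in HFD Mof+/-, so that replicate 1 was highest of the 10 libraries and replicate 2 lowest. On HFD all 6 stood above 0 with a median of 2.55, their groups overlap, and 0 passed (lowest adjusted p = 0.42, edgeR). Replicate 3 of SD Mof+/- and replicate 2 of HFD Mof+/-, the libraries highest in nuclear-coded subunits, were the lowest in these.

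Of 14 regulators of these genes 12 were tested on SD, and 0 passed, with a median of -0.43. With Mof+/- lower, groups did not overlap in CPM for 7 of the 12 and for 30.6% of all genes tested. With Mof+/- higher it was 1 of the 12 and 9.71%. These values are without the length correction, and over all genes above 1500 bases the median on SD was -0.24. Ppargc1a, the coactivator PGC-1 alpha, was at 7.3, 12.2 and 9.3 CPM in SD Mof+/+ and at 1.6, 2.7 and 0 in SD Mof+/-, and did not overlap (-2.40, SE 1.11, adjusted p = 0.22, edgeR). Ppargc1b, the related coactivator, was at 7.41, 9.9985 and 2.58 CPM against 2.97, 2.88 and 4.31, which overlap. Nrf1 was at 23.4, 20.4 and 20.5 CPM against 12.7, 9.1 and 19.8 (-0.25, SE 0.41), and Esrra, an oestrogen-related receptor, at 53.6 to 55.8 against 36.4 to 53.8 (0.10, SE 0.26). Gabpa, the DNA-binding part of GABP, was at 36.8 to 53.8 CPM in SD Mof+/+ and at 32.7, 32.3 and 2.2 in SD Mof+/-. On HFD it was at 32.6 and 31.0 against 5.7 and 14.6 (-1.32, SE 0.73, adjusted p = 0.63, edgeR). Tfam, which packs and transcribes mitochondrial DNA, was at 23.6 to 29.8 CPM against 22.8 to 31.7, with full overlap.

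Some counts are shared with other genes. Of the 39 genes, 14 have 34 pseudogene copies among the counted genes (at least 95% identity over at least 100 bases), and for 12 of them the copies held at most 6.35% of the gene's own count in each library. The exceptions are Atp5l, at 5.02% to 13.7%, and Atp5g2, at up to 60.5% in replicate 1 of HFD Mof+/-, where its own count was 38. The libraries were unstranded, so that strand does not separate the reads of overlapping genes. The strand setting of the counting is not given in the sources used here. Atp5j overlaps Gabpa on the other strand, which held up to 42.6% of the count of Atp5j, and Cox4i1, Cox6c and Atp5f1 overlap Emc8, Vps13b and Wdr77, at up to 13.7%, 25.7% and 15.7%, so that some of these reads cannot be told apart.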

How the data were processed

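Gene-level mRNA-seq counts of 10 libraries of visceral WAT were used. The authors took equal tissue weights, made unstranded poly(A) libraries, aligned to GRCm38 (STAR), counted reads per gene (featureCounts, Subread 1.5.0-p1) and deposited raw counts. The annotation release is not given in the sources used here. Identifiers without versions were looked up in GENCODE M21 (47224 of 47937 matched), which gave transcript lengths (principal transcript of the best support level, the shortest of several).

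Groups follow the labels. Each pair of groups was tested in edgeR 4.0.16 (quasi-likelihood test, TMM scaling, filterByExpr) with its own libraries only, and p-values were adjusted by Benjamini-Hochberg over all genes tested, with calls below 0.05. The interaction used all 10 libraries. The length correction put each library's loess trend (span 0.5) of log2 CPM on log10 length into the offsets. Totals of 1044355 to 17171947 counts set the precision. Intervals are exact Clopper-Pearson at 95% and cover counting error only. Copies were sought with blastn 2.17.0. R 4.3.3, DESeq2 1.42.0, Python 3.11.15, pandas 2.3.3, scipy 1.17.1 and matplotlib 3.10.9 were used, and the fits were tested on simulated data.

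The 39 genes, the other lists and the rule for named genes were chosen with earlier results of these data known. By that rule, values in every library are given for complex II, Cycs, the subunit c genes and the genes of largest and smallest log2 fold change (on SD within each of complexes III to V, otherwise over the 39), and a gene is named where a count of 5 or fewer singles it out. The alternatives were DESeq2, its size factors, no filter, a minimum of 10 counts per library, the replicate block, the length correction, both together, one fit of all 10 libraries, each library left out, the headings' grouping, TMM without muscle and mitochondrial genes, and other CPM denominators. The longest principal transcript, and the length correction without replicate 1 of HFD Mof+/-, were added after seeing the data. Correlations of the deviations of same-numbered libraries ran from -0.04 to 0.06. In the HFD groups the deviations of the libraries mirror each other, so that correlations with them cannot show a pairing. On SD same-numbered libraries were at 0.035, 0.014 and 0.055, and the others from -0.049 to 0.02.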

Additional observations from a re-analysis of the deposited data

Results flagged for a closer look

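For 3 of the 39 genes the HFD libraries lay below all SD libraries in Mof+/+ and above all SD libraries in Mof+/- in CPM. They are Uqcrc1, Cyc1 and Atp5a1, and 2.0% of the 13144 genes tested in both comparisons showed the same pattern (263 genes). The difference itself was tested as the genotype by diet interaction in edgeR, which gave 1.15 on the log2 scale for Uqcrc1 (SE 0.46, adjusted p = 0.35), 0.69 for Cyc1 (SE 0.39, adjusted p = 0.51) and 0.71 for Atp5a1 (SE 0.41, adjusted p = 0.52), so that 0 of the 3 passed. Uqcrc1 was at 254, 321 and 312 CPM in SD Mof+/+, 233 and 245 in HFD Mof+/+, 233, 269 and 381 in SD Mof+/-, and 609 and 553 in HFD Mof+/-.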

How the results depend on the processing

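On SD the count of the 39 genes called (17) became 27 with DESeq2 (1245 of 21840 genes called higher and 953 lower), 11 with its size factors in edgeR (371 and 257 of 13864), 7 with all 10 libraries in one fit (132 and 62 of 15897), 1 with the length correction by either transcript, and 0 by the headings' grouping (0 of all genes). Leaving out single libraries gave 0 to 19, with medians from 0.88 to 1.26. The median became 0.38 with the length correction (0.3803 with the longest transcript) and -0.15 by the headings. In Mof+/+ the count called between diets (6) became 16 with DESeq2 (1474 and 1493 of 21957), 1 with the length correction, and 0 with the longest transcript (596 and 289 of 14898), the headings (0 of 14619) or all 10 libraries (124 and 18 of 15897), and 0 to 2 with a library left out. Its median became -0.16, -0.19 with the longest transcript and -0.47 by the headings, and ranged from 0.34 to 0.52 with a library left out. Left-out libraries gave 0 to 11 calls and medians of 0.98 to 1.20 between genotypes on HFD, 0 to 7 calls and 0.16 to 0.60 between diets in Mof+/-, and 0 to 1 calls and -0.18 to 0.16 for the interaction. The 1 interaction call, Cox6a1 lower, was made without replicate 2 of HFD Mof+/-, where 504 of 17895 genes were called larger and 2659 smaller. The median interaction term became 0.52 with the length correction (0.5355 with the longest transcript, 0.44 without replicate 1 of HFD Mof+/- as well, 0.54 with the replicate block as well) and 1.13 by the headings. By the headings the median between diets in Mof+/- was 0.92. The cause of these shifts was not tested, and the shallow replicate 1 of HFD Mof+/- limits the HFD comparisons.

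Libraries share only a replicate number. With the replicate block 8 genes were called on SD (280 of 13864 genes called higher and 148 lower) and 0 between diets in Mof+/+ (875 and 585 of 14939). Between diets in Mof+/- it gave 0 calls (105 and 140 of 13610) and a median of 0.58. With the replicate block and the length correction together 0 were called on SD (median 0.39, over all genes 47 higher and 21 lower of 13832), 1 on HFD (Uqcrc1 higher, 155 and 33 of 14087), 2 between diets in Mof+/+ (Uqcrc2 and Atp5g2 lower, median -0.29, 916 and 741 of 14898) and 1 between diets in Mof+/- (Cox5a higher, median 0.68, 159 and 76 of 13578). Correlations of same-numbered libraries were all under 0.1, and replicate 2 of SD Mof+/- did not correlate best with its own number.

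Ratios of summed CPM, Mof+/- over Mof+/+, became with TMM-scaled CPM 1.47 for complex II, 1.84 for Cycs and 1.77 for complex V on SD, and 1.90, 2.84 and 2.16 for complexes II, III and V on HFD. Over nuclear genes only they were 1.72, 2.59 and 1.96 on HFD, and without muscle genes as well 1.84, 2.78 and 2.09. With a library left out the SD ratios ranged from 1.11 to 1.21 (complex II), 1.45 to 2.01 (III), 1.34 to 1.54 (Cycs), 1.56 to 2.32 (IV) and 1.23 to 1.46 (V), and the HFD ratios from 1.45 to 1.56, 2.14 to 2.36, 1.06 to 2.10, 1.52 to 2.18 and 1.63 to 1.81.

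Of 575 alternative values of single genes 423 kept direction and side of the threshold, 90 lost and 18 gained a call, and 44 changed sign. With the length correction on SD, Sdha was at 0.13, Atp5g2 at -0.75, Atp5g3 at -0.39 and Cox8a at -0.27 (longest transcript 0.094, -0.52, -0.47 and -0.36, with the replicate block 0.13, -0.79, -0.37 and -0.24). By the headings Sdha was at 0.21, Sdhc -0.13, Atp5g1 -0.52, Atp5g3 -0.15, Uqcr11 -0.40, Cox7c -0.41, Cox8a -0.065 and Atp5k -0.69. Sdha ranged up to 0.034 without replicate 2 of SD Mof+/+ and 0.15 without replicate 3 of SD Mof+/-. On HFD Atp5g2 was at -0.029 with the replicate block, -0.19 with block and length correction, -0.028 with the length correction, -0.0045 without replicate 1 of Mof+/+, and from -0.77 to 0.55 with other libraries left out. Between diets in Mof+/+ the length correction gave Uqcr10 -0.052, Atp5h -0.0034 and Atp5l -0.0038 (longest transcript -0.082, -0.0017 and -0.037, with the replicate block -0.24, -0.12 and -0.17, and Cox7c -0.029). By the headings Cox7c was at -0.57, Uqcr10 -0.47, Atp5h -0.43, Atp5j2 -0.48 and Atp5l -0.21. Between diets in Mof+/-, Atp5g1 ranged from -0.11 without replicate 1 of HFD Mof+/- to 1.80 without replicate 2, and Atp5g2 was at 0.017 without replicate 1 and with the length correction.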
